A study of Homo sapiens with 62 samples.

Results

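BCL2A1, a pro-survival member of the BCL2 family, was the most abundant of the 10 family members examined in every one of 20 SMART-seq libraries of the human line GM12878. The members were the pro-survival genes BCL2, BCL2L1, MCL1 and BCL2A1 and the pro-death genes BAX, BAK1, BID, BCL2L11, BIK and BAD. Their rows were taken by gene symbol and not by measured value, though the members were chosen with earlier results of these data known. Each symbol had a single row among the 55040 genes of the deposited files. GM12878 is an Epstein-Barr virus-immortalised B-lymphoblastoid cell line. Each of the 20 libraries was made from a pool of 10 cells whose material had been divided into 10 parts, each part then being treated like a picked cell. Polyadenylated RNA was converted to cDNA with the SMARTer Ultra Low kit, and Nextera libraries of it were read on an Illumina HiSeq instrument. The titles number 10 of these libraries as splits 1 to 10 (the numbered splits), while the other 10 carry a library number and no split number, 232, 233 or 246 to 253 (the unnumbered splits). The titles of 9 of the unnumbered splits, all except 247, also mark the deposit as superseded by another series, which was not used here; no numbered split carries that mark. Both sets came from the same line under the same protocol, and the labels name no treatment. The labels do not say that each set was a single pool, so p-values measure the spread between these splits, which may be technical. The other 42 of the series' 62 samples were not analysed here.

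The BCL2 family decides whether a cell commits to the mitochondrial pathway of apoptosis. BAX and BAK1 are the effectors that perforate the outer mitochondrial membrane and release cytochrome c. BCL2, BCL-XL (from BCL2L1), MCL1 and BFL-1 (from BCL2A1) hold them in check, and the BH3-only proteins BID, BIM (from BCL2L11), BIK and BAD either activate the effectors or occupy the guardians. In B cells BCL2A1 is known as a target of NF-kappa B, which the viral protein LMP1 switches on in cells transformed by Epstein-Barr virus. Much of the control of this family lies in protein turnover, cleavage and phosphorylation, which transcript levels do not show.

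Levels are FPKM, fragments per kilobase of transcript and per megafragment mapped, so genes can be compared with each other per length. A gene was called detected at an FPKM of 1 or more. Depth, estimated from the confidence bounds of 10 mitochondrial genes, was 11.8 to 20.6 megafragments in the numbered splits. In the unnumbered splits it was 23.3 to 38.7 megafragments apart from 7.79 in 252 and 0.128 in 247. Numbered splits held 3771 to 7671 genes at 1 FPKM or more, the fewest in split 9, and unnumbered splits held 2942 to 4792, the fewest in 253. B cell markers were present in every library, with a summed level of 4196 to 7970 FPKM in numbered and 2462 to 4055 FPKM in unnumbered splits. The erythroid and platelet markers were listed at 0 throughout. An exact 0 in these files need not mean absence: of 6 genes that every cell uses, TBP was listed at 0 in 8 libraries and GUSB in 11.

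The family fell into 3 tiers. BCL2A1 had a median of 428 FPKM over the 20 libraries and was detected in all 20. BID followed with a median of 25.5 FPKM and detection in 12. The medians of the remaining 8 members lay between 0 and 0.184 FPKM, with detection in 9 libraries for MCL1, 8 for BCL2L1, 6 each for BCL2 and BAX, 5 for BAK1, 2 each for BAD and BIK and none for BCL2L11. The ranges of every pair of neighbours in this order overlapped. Below BCL2A1 the tiers did not hold within each set. In numbered splits the medians were 75 FPKM for BID, 26.9 FPKM for BCL2L1 and 5.76 FPKM for MCL1. In unnumbered splits the BID median was 0.115 FPKM, below the 0.156 FPKM of BCL2. Of the 200 member values, 76 were listed at 0, 54 lay between 0 and 1 FPKM and 70 reached 1 FPKM, and 24 of the values above 0 corresponded to less than about 1 fragment.

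**Figure D1:**
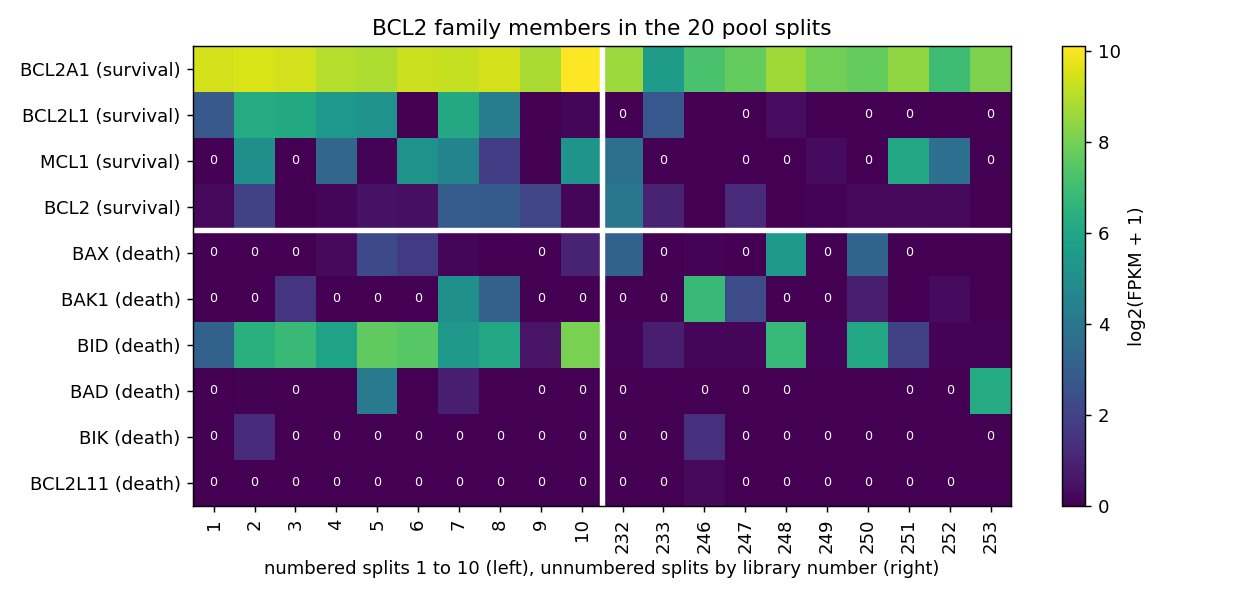
Levels of the 10 BCL2 family members (rows, survival genes above death genes) in the 10 numbered (left) and 10 unnumbered (right) pool splits (columns), as log2(FPKM + 1) in colour; a printed 0 marks a value listed at exactly 0. BCL2A1 is bright in all 20 columns, BID is bright in most numbered splits and in unnumbered 248 and 250, and BCL2L11 is dark everywhere.

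BCL2A1, BCL2L1 and BID were the 3 members that differed between the sets, and all 3 were higher in the numbered splits. The test was limma with a trend in the variance, run on log2(FPKM + 1), and p-values were adjusted by Benjamini-Hochberg over the 10506 genes with a mean of at least 1 FPKM. Of these genes, 5.31% passed an adjusted p of 0.05, 3.93% being higher in numbered and 1.38% higher in unnumbered splits. Thus 3 of the 8 tested members passed, and no test was made of that share. BCL2L1 passed the filter on the mean through its numbered values, its mean in unnumbered splits being 0.614 FPKM. The median log2 difference of all genes tested was itself 0.35. Scaling moved the split of calls: 413 genes were higher in numbered and 145 in unnumbered splits on FPKM as deposited, against 345 and 217 on the TPM scale and 309 and 194 with median-ratio size factors, and the median of all genes then stood at 0.24 and 0.23. With the trend on transcript length removed, an alternative added after the data were seen, the counts were 234 and 232 and the median was 0.04. All 3 members were still called higher in numbered splits on the TPM scale and with size factors.

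The upstream sequences of these 3 members are shown because they are the members that passed the threshold. They are the 250 bases before the annotated start (RefSeq, GRCh38.p14, all on the minus strand, written 5′ to 3′ along the gene), with TATAAA in capitals. BCL2A1 has 1 listed start, while the most upstream of 2 is shown for BCL2L1 and of 5 for BID.
BCL2A1 (chr15:79971197-79971446): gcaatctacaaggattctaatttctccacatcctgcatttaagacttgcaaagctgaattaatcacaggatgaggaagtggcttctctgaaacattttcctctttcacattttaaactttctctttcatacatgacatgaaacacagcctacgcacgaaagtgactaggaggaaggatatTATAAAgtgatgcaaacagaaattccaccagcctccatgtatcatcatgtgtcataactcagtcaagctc
BCL2L1 (chr20:31723964-31724213): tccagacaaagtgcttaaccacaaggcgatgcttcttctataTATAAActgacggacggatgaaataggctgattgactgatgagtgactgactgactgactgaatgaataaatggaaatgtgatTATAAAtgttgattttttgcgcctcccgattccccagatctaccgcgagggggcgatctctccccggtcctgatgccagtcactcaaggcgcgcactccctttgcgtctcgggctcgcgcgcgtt
BID (chr22:17774666-17774915): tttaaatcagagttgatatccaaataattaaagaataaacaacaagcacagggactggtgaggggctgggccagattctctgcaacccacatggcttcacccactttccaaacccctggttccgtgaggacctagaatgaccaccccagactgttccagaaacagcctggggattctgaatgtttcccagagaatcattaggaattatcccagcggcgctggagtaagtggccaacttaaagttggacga
The BCL2A1 sequence holds TATAAA 70 bases before the start, and the BCL2L1 sequence holds it 208 and 125 bases before. The BID sequence has no match to these letters. Searched on both strands over the same length, TATAAA occurred in 10.7% of 35116 promoters of the table and a kappa B-like decamer (GGGA, any 2 bases, TTCC) in 1.4%, with no match to the decamer in the 8 members that the table lists. GC content of the windows shown was 38.8% for BCL2A1, 50% for BCL2L1 and 47.6% for BID. The median over all these promoters was 58%, with quartiles of 46.4% and 68%. The starts not shown differed: the other BCL2L1 window had 60.4% GC and no TATAAA, and the other BID windows had 68.8 to 78% GC. A match of letters is a description of the window and not evidence of a bound factor.

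BCL2A1 (ENSG00000140379.7, chr15:80253231-80263788 in the deposited files) encodes BFL-1, which binds BIM, BID and other BH3 proteins. It had a lowest, median and highest level of 449, 653 and 1104 FPKM in the numbered splits, against 47.2, 231 and 407 FPKM in the unnumbered splits. The sets did not overlap: the lowest numbered split, 9, stood above the highest unnumbered split, 248. Values that do not overlap with the numbered splits higher were found in 1.65% of genes tested. The mean was 659 ± 189 FPKM in numbered and 241 ± 117 FPKM in unnumbered splits (SD, n = 10 each), a ratio of 2.73. The log2 difference was 1.62 with a standard error of 0.35 and a 95% interval of 0.89 to 2.34 (limma, adjusted p = 0.0042). An exact rank-sum test, which called 9.07% of genes, gave an adjusted p of 0.000542.

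Both runs of numbered libraries stood above the unnumbered splits. Run a, the laboratory experiment numbers that hold splits 5 to 8, gave 466 to 705 FPKM, and run b, the other 6 numbered splits, gave 449 to 1104 FPKM. Without run a the log2 difference was 1.68 (limma, adjusted p = 0.0232). The unnumbered splits fall into runs c (232 and 233) and d (the other 8), so set and run cannot otherwise be told apart. Removing from each library the trend of level on transcript length left a log2 difference of 1.26 that no longer passed (limma, adjusted p = 0.0710). BCL2A1 has a median annotated transcript length of 921 bases.

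Among the genes tested, BCL2A1 held ranks 232 to 470 from the top in the numbered splits and ranks 493 to 2402 in the unnumbered splits, where split 233 gave the lowest rank and the lowest level. Split 233 was also the deepest library, with 38.7 megafragments. The shallowest, 247, held about 24.8 fragments of BCL2A1, and every other library held at least 898. The coefficient of variation within a set was 0.287 in numbered and 0.487 in unnumbered splits. Among the 1216 genes with a mean of 100 to 1000 FPKM the median coefficients were 0.644 and 0.746 in the numbered and unnumbered splits, and 37.8% of those genes were detected in all 20 libraries as BCL2A1 was. Because these are libraries of pooled material, fewer cells carrying a transcript and less of it per cell cannot be told apart.

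**Figure D2:**
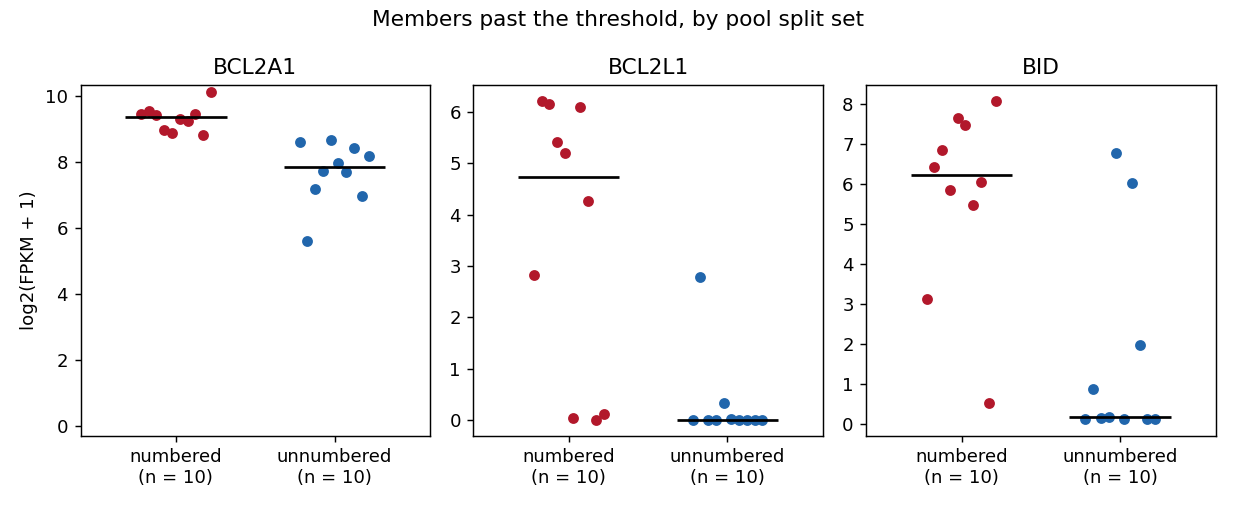
log2(FPKM + 1) of BCL2A1, BCL2L1 and BID in each pool split, with numbered splits (n = 10) left of unnumbered splits (n = 10); each point is a library and the line is the median of its set. The BCL2A1 points do not overlap, whereas BCL2L1 and BID have numbered splits near 0 and unnumbered splits well above it.

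BCL2L1 (ENSG00000171552.8, chr20:30252255-30311792) encodes BCL-XL, which restrains BAX and BAK1, and by alternative splicing also the pro-death BCL-XS; gene-level FPKM does not separate the products. Its highest values were 73.1, 70.0 and 67.3 FPKM in numbered splits 2, 3 and 7, and the median of the numbered set was 26.9 FPKM. In the unnumbered set the highest value was 5.87 FPKM in split 233 and the next was 0.257 FPKM in split 248. It was detected in 7 numbered splits and 1 unnumbered split, and the files list it at 0 in 5 unnumbered splits and in no numbered one. The sets overlapped, since numbered splits 6, 9 and 10 lay below 0.1 FPKM, each with a lower confidence bound of 0. Split 9 stood at 1.42e-09 FPKM, so the count of exact zeros overstates the contrast between the sets. The log2 difference was 3.32 with a standard error of 0.92 and a 95% interval of 1.42 to 5.21 (limma, adjusted p = 0.0305).

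That call was close to the threshold. Without unnumbered splits 247 and 252 the log2 difference was 3.24 (limma, adjusted p = 0.0775), and without run a it was 3.14 (adjusted p = 0.105). Leaving out any of numbered splits 2, 3, 4, 5, 7 or 8 also ended the call, with an adjusted p of up to 0.0587. The row RP11-243J16.7 overlaps BCL2L1 and stood at 52.1 FPKM in split 233, the unnumbered split in which BCL2L1 was detected; in numbered split 2, where BCL2L1 peaked, it stood at 0.0863 FPKM. Counting by strand is not stated, so reads of the overlapping rows cannot be assigned further.

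BID (ENSG00000015475.14, chr22:18216906-18257536) encodes the BH3-only protein that caspase-8 cleaves to carry a death receptor signal to mitochondria. Its lowest, median and highest levels were 0.432, 75 and 270 FPKM in numbered splits, against 0.0746, 0.115 and 108 FPKM in unnumbered splits. It reached 1 FPKM in 9 numbered splits, all except split 9, and in 3 unnumbered splits, with 108 FPKM in 248, 64.2 FPKM in 250 and 2.89 FPKM in 251. The sets therefore overlapped, but the other 7 unnumbered splits all lay below 0.9 FPKM. BID was never listed at 0 in either set. The log2 difference was 4.11 with a standard error of 1.08 and a 95% interval of 1.88 to 6.35 (limma, adjusted p = 0.0217).

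Leaving out any single library kept the BID call, with an adjusted p of up to 0.0459 in limma. It was lost without unnumbered splits 247 and 252 (log2 difference 3.74, adjusted p = 0.0779) and without run a (3.5, adjusted p = 0.214). The size of both the BID and the BCL2L1 difference moved with the pseudocount: at 0.1 they were 5.60 and 5.23, and at 10 they were 2.23 and 1.5. BID and BCL2L1 were detected together in 7 numbered splits and in 0 unnumbered splits, and every numbered split with BCL2L1 also had BID. Because BID was detected in 9 of 10 numbered splits and BCL2L1 in only 1 unnumbered split, these counts cannot show a link between the genes.

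**Figure D3:**
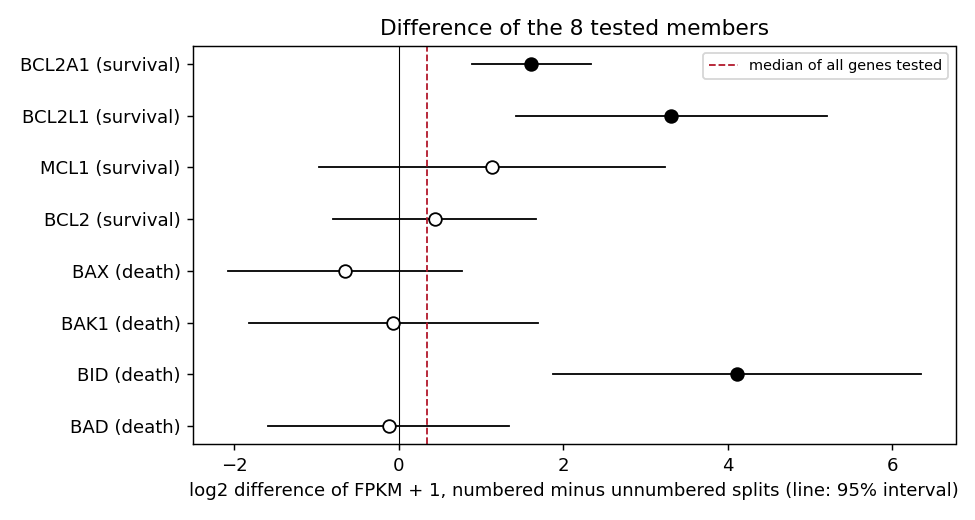
log2 difference of FPKM + 1, numbered minus unnumbered splits, for the 8 tested members, with 95% intervals from limma; filled points passed an adjusted p of 0.05 and the dashed line is the median of all genes tested. BCL2A1 has the narrowest interval, and the intervals of MCL1, BCL2, BAX, BAK1 and BAD span 0.

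The other 2 pro-survival members did not pass the test. MCL1 (ENSG00000143384.8, chr1:150547032-150552066), a short-lived guardian that B cells depend on, had a lowest, median and highest level of 0, 5.76 and 36.2 FPKM in numbered splits, against 0, 0.00929 and 65.8 FPKM in unnumbered splits. It was detected in 6 numbered and 3 unnumbered splits, and its highest value of all was in unnumbered split 251. MCL1 differed by 1.14 on the log2 scale, with a 95% interval of -0.96 to 3.24 (limma, adjusted p = 0.605).

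BCL2 (ENSG00000171791.9, chr18:60790579-60987361), the guardian first found at a lymphoma translocation, had a lowest, median and highest level of 0.0324, 0.386 and 6.71 FPKM in numbered splits, against 0.00131, 0.156 and 14.6 FPKM in unnumbered splits. Detection reached 4 numbered splits (2, 7, 8 and 9) and 2 unnumbered splits (232 and 247). In the shallow split 247 its 1.35 FPKM corresponded to about 0.710 of a fragment. On the log2 scale BCL2 differed by 0.44, with an interval of -0.79 to 1.67 (limma, adjusted p = 0.706). BCL2, BID and BCL2A1 were the 3 members above 0 in all 20 libraries.

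The effectors were low and patchy in both sets. BAX (ENSG00000087088.14, chr19:49458072-49465055) had a median of 0.0678 FPKM and a highest value of 3.84 FPKM in numbered splits, against a median of 0.0180 FPKM and a highest value of 41.8 FPKM in unnumbered splits. It was detected in 3 splits and listed at 0 in 4 splits of each set. BAK1 (ENSG00000030110.8, chr6:33540329-33548019) was detected in 3 numbered and 2 unnumbered splits and had an exact 0 in 7 numbered and 4 unnumbered splits. Its peaks were 32.9 FPKM in numbered split 7 and 110 FPKM in split 246 of the unnumbered set, while its 4.09 FPKM in the shallow split 247 corresponded to about 1.12 fragments.

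In no library were BAX and BAK1 both detected: 6 libraries had BAX, 5 had BAK1 and 9 had neither. The log2 difference was -0.65 for BAX with an interval of -2.07 to 0.77 (limma, adjusted p = 0.616) and -0.06 for BAK1 with an interval of -1.82 to 1.69 (adjusted p = 0.973). The pseudogene BAK1P1 on chromosome 20 peaked in the same libraries as BAK1, with 7.26 FPKM in numbered split 7 and 27.4 FPKM in split 246 of the unnumbered set, so the BAK1 values carry the uncertainty of reads shared with a near copy.

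Among the other BH3-only members, BAD (ENSG00000002330.9, chr11:64037302-64052176), whose protein occupies BCL2 and BCL-XL when survival signalling stops, was detected once in each set. It had 16.8 FPKM in numbered split 5 and 73.4 FPKM in split 253 of the unnumbered set, with an exact 0 in 4 numbered and 6 unnumbered splits. The log2 difference was -0.12 with an interval of -1.58 to 1.34 (limma, adjusted p = 0.939). GPR137, which overlaps BAD, also peaked in split 253 among the unnumbered splits, at 14.9 FPKM, but stood near 0 in numbered split 5.

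BIK and BCL2L11 had a mean below 1 FPKM and were not tested. BIK (ENSG00000100290.2, chr22:43506754-43525718), an activator of death held at the endoplasmic reticulum, reached 1.32 FPKM in numbered split 2 and 1.68 FPKM in split 246 of the unnumbered set, with an exact 0 in 9 numbered and 8 unnumbered splits. BCL2L11 (ENSG00000153094.16, chr2:111876955-111924587), which encodes BIM, the main initiator of lymphocyte death, was listed at 0 in all 10 numbered and in 8 unnumbered splits, and its highest value was 0.197 FPKM in split 246, about 5 fragments. Neither was detectable at this depth in most libraries, which is not evidence of absence.

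Summed over members, pro-survival transcripts exceeded pro-death transcripts in all 20 libraries. The survival sum had a lowest, median and highest value of 452, 705 and 1140 FPKM in numbered splits, against 54.0, 231 and 414 FPKM in unnumbered splits. The death sum was 0.432, 81.4 and 271 FPKM in numbered splits, against 0.0768, 6.03 and 150 FPKM in unnumbered splits. The log2 ratio of the sums, each with 1 FPKM added, had a median of 3.21 in numbered splits, between 1.18 in split 5 and 8.31 in split 9, and a median of 5.13 in unnumbered splits, between 0.37 in 246 and 7.87 in 249. The death sum was below 1 FPKM in numbered split 9 and in unnumbered splits 233, 249 and 252, so their ratios depend largely on the 1 FPKM added. The ranges of the sets overlapped, and no test was made of this score.

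BCL2A1 supplied most of the survival sum. It made up 86.2 to 99.3% of the survival sum in numbered splits and 83.9 to 100.0% in unnumbered splits. With BCL2A1 left out, pro-death transcripts exceeded pro-survival ones in 7 of 10 numbered and 5 of 10 unnumbered splits, and the median log2 ratio turned to -0.50 in numbered and -0.42 in unnumbered splits. BID in turn supplied 56.1 to 100.0% of the death sum in numbered splits, with a median of 98.6%, while in unnumbered splits its share ran from 0.0895 to 99.6% with a median of 47.1%. BAK1 made up most of the death sum in 246 and 247, BAX in 232 and BAD in 253, whereas in 233 and 249 BID made up 99.5% and 98.8% of a death sum that was below 1 FPKM.

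The repertoire of each split was small. A numbered split had 2 to 6 members at 1 FPKM or more with a median of 4, and an unnumbered split had 1 to 4 with a median of 3. Numbered splits 2, 7 and 8 each had 6 members, including all 4 pro-survival ones. Split 9 had BCL2A1 and BCL2 alone, and unnumbered split 249 had BCL2A1 alone. Summed over members and splits there were 44 detections in numbered and 26 in unnumbered splits. Over all genes, the median number at 1 FPKM or more was also higher in numbered splits, 5146 against 4486.5 in unnumbered splits. The numbered splits were the shallower libraries apart from 247 and 252, and the part of depth in these counts was not tested.

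**Figure D4:**
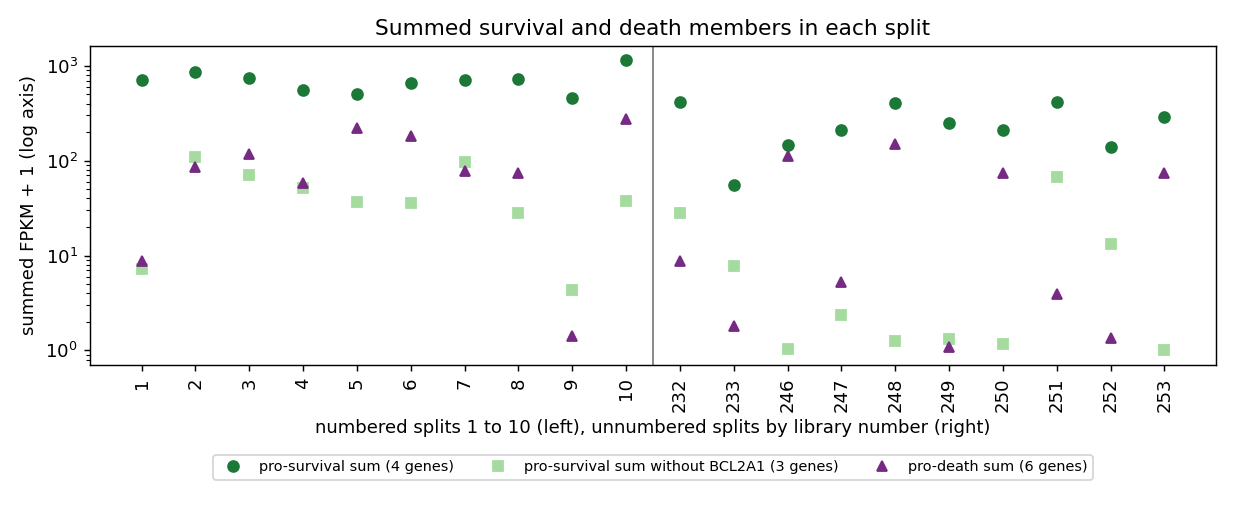
Summed FPKM + 1 (log axis) of the 4 pro-survival members, of the 3 left without BCL2A1 and of the 6 pro-death members in each numbered (left) and unnumbered (right) pool split. The full survival sum lies above the death sum in all 20 libraries, and without BCL2A1 the death sum is the higher in 12 of them.

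Beyond the 10 members, 58 further genes of the apoptosis pathway were tested, and 5 were higher in numbered and 4 higher in unnumbered splits. Of all genes tested, 3.93% were higher in numbered and 1.38% higher in unnumbered splits. The median log2 difference was 0.30 against 0.35 for all genes. No test was made of these counts or of those of the single lists below. In the list of other BCL2 family and BH3 proteins, 7 of 14 genes were tested and 3 were higher in numbered splits. They were BNIP3L, BNIP3 and PMAIP1. BNIP3L and its relative BNIP3 tag mitochondria for autophagy. BNIP3L had a lowest, median and highest level of 42.5, 210 and 475 FPKM in numbered splits, against 0, 0.000334 and 521 FPKM in unnumbered splits, where it was detected in 2 (log2 difference 6.17, standard error 1.02, limma adjusted p = 0.000183). BNIP3 had 0, 66.8 and 152 FPKM in numbered splits, against 0, 0 and 29.6 FPKM in unnumbered splits (log2 difference 4.05, limma adjusted p = 0.0113). PMAIP1, which encodes the MCL1 antagonist NOXA, had 75.7, 237 and 365 FPKM in numbered splits, against 0, 52.5 and 244 FPKM in unnumbered splits (log2 difference 3.47, limma adjusted p = 0.0336). BNIP3L kept its call in all 12 alternative limma fits other than those leaving out single libraries, whereas PMAIP1 lost it in 9 of them (adjusted p up to 0.198) and BNIP3 in 2 (up to 0.132), those without run a or with run a as a term.

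The later steps of the pathway did not move as a block. Of 8 tested caspases, CASP2 was higher in unnumbered splits, with a median of 16.6 FPKM in numbered and 59.6 FPKM in unnumbered splits (log2 difference -3.06, limma adjusted p = 0.0344; the call was lost in 3 of the 12 fits, with an adjusted p of up to 0.315), and 7 did not pass, among them CASP6. Of 9 tested genes of the apoptosome and mitochondrial release, VDAC2, a channel that holds BAK1 at the outer membrane, was higher in numbered splits (medians of 150 FPKM in numbered and 12.1 FPKM in unnumbered splits, log2 difference 3.72, limma adjusted p = 0.0489). That call was lost in 8 of the 12 fits, with an adjusted p of up to 0.238, and the exact rank-sum test did not make it. Its relative VDAC3 was higher in unnumbered splits (medians of 190 FPKM in numbered and 607 FPKM in unnumbered splits, log2 difference -1.63, limma adjusted p = 0.00917; lost in 2 fits, with an adjusted p of up to 0.0786). CYCS, which encodes cytochrome c, had medians of 524 FPKM in numbered and 569 FPKM in unnumbered splits and did not pass (adjusted p = 0.630).

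Of 5 tested inhibitors of apoptosis, BIRC5, which encodes the mitotic protein survivin, was higher in unnumbered splits, with medians of 41.8 FPKM in numbered and 165 FPKM in unnumbered splits (log2 difference -2.52, limma adjusted p = 0.0245; lost in 1 fit at 0.0563), while BIRC3 and CFLAR were not called. Of 5 tested death receptors and adaptors, 0 passed in limma, 0 had an unadjusted p under 0.05 and 0 passed the exact rank-sum test; FAS, with means of 86.8 ± 147 FPKM in numbered and 110 ± 96.7 FPKM in unnumbered splits (SD, n = 10 each), and CRADD had the highest means. Of 15 tested genes that act on turnover or anchoring of MCL1 and BH3 proteins, TPT1, whose product binds MCL1, was higher in numbered splits, with medians of 2507 FPKM in numbered and 911 FPKM in unnumbered splits (log2 difference 1.36, limma adjusted p = 7.2e-05). YWHAE, a 14-3-3 protein that can sequester BAD, was higher in unnumbered splits, with medians of 1013 FPKM in numbered and 2373 FPKM in unnumbered splits (log2 difference -1.18, limma adjusted p = 0.000103).

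**Figure D5:**
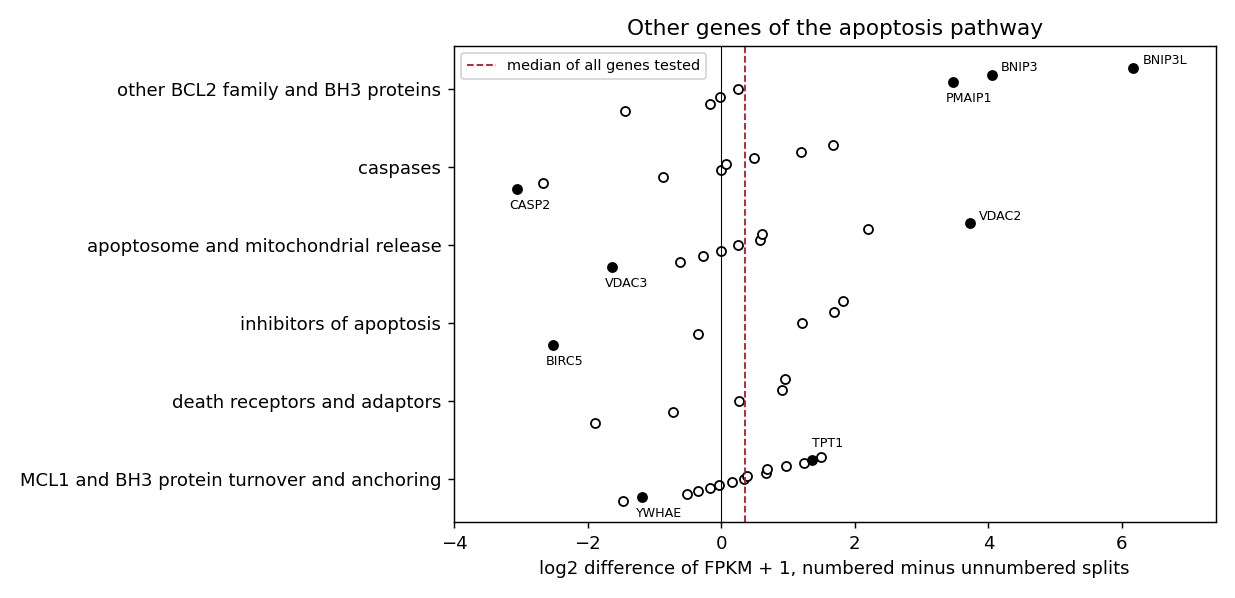
log2 difference of FPKM + 1, numbered minus unnumbered splits, for each tested gene of the 6 apoptosis lists described here; filled, labelled points passed an adjusted p of 0.05 in limma and the dashed line is the median of all genes tested. Called genes lie on both sides of 0, with BNIP3L farthest to the right at 6.17 and CASP2 farthest to the left at -3.06.

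Markers of cell types were set beside these results. Of the 10 B cell markers, all tested, 3 were higher in numbered splits: CD74 (log2 difference 1.20, limma adjusted p = 2.16e-05), MS4A1 (1.64, adjusted p = 0.00401) and CD79A (4.69, adjusted p = 0.00274). CD40, PAX5 and the other B cell markers did not pass. Of all genes tested, 3.93% were higher in numbered splits, and no test was made of the share of B cell markers. The summed T and NK cell markers ran from 3.22 to 99.2 FPKM in numbered and from 0 to 243 FPKM in unnumbered splits, the myeloid ones from 1.66 to 53.8 FPKM in numbered and from 0.920 to 1.65 FPKM in unnumbered splits, and the fibroblast and epithelial ones from 0 to 40.7 FPKM in numbered and from 0 to 2.61 FPKM in unnumbered splits. Of these, CD3D, GNLY, CD14, S100A8, COL1A2 and KRT18 were listed at 0 in all 20 libraries, and NKG7 reached 92.2 FPKM in numbered and 243 FPKM in unnumbered splits. The myeloid marker CSF1R was at 1 FPKM or more in 10 numbered and 8 unnumbered splits, with medians of 2.42 and 1.30 FPKM. CSF1R was called by the exact rank-sum test and not by limma (adjusted p = 0.349). ITGAM and KRT8 each reached 1 FPKM in 1 numbered split, at 38.6 and 40.7 FPKM, and in no unnumbered split. The median of the summed T and NK cell markers was 32.3 FPKM in numbered and 0.00391 FPKM in unnumbered splits, and CD2 was at 1 FPKM or more in 6 numbered splits and 1 unnumbered split. The part of these markers, of depth and of the number of genes per library in the BCL2A1, BCL2L1 and BID differences was not tested.

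Genes most like the 2 broadly detected members were sought over the 20 libraries after subtracting the mean of each set, among 10505 genes and as a description with no p. For BCL2A1 the highest Pearson correlations of log2(FPKM + 1) were with PSMA1 (0.76), CCAR1 (0.73) and PHF20 (0.72). For BID they were with BNIP3 (0.84), EIF3FP3 (0.84) and FAM116B (0.82), the first of which is in the pathway list above. BID and BNIP3 had a correlation of 0.93 within the numbered and 0.77 within the unnumbered splits. With BID, EIF3FP3 had 0.92 and 0.79, and FAM116B had 0.64 and 0.97. With BCL2A1, PSMA1 had 0.58 and 0.81, CCAR1 had 0.59 and 0.90, and PHF20 had 0.50 and 0.79. Spearman correlations after the same subtraction were 0.46, 0.57 and 0.68 for BCL2A1 with PSMA1, CCAR1 and PHF20. For BID with BNIP3, EIF3FP3 and FAM116B they were 0.85, 0.80 and 0.64. The points share their libraries, and so their depth and number of genes captured.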

How the data were processed

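Each deposited file held, for 1 library, the FPKM of 55040 genes with confidence bounds and a status, which the authors made with Cufflinks 2.0.2 and TopHat 1.4.1, the tools named in the submitters' processing notes. Their genome build is not given in any source used here, and gene coordinates are copied from the deposited files, 1-based. Rows marked LOWDATA in all libraries (5797) or FAIL in any (128, among them XIAP, a gene of the pathway lists) were left out, which kept 49115 rows. The 10 members all passed this step. Of the rows kept, 10506 with a mean of at least 1 FPKM were tested, BIK and BCL2L11 falling below that filter.

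Differences were tested with limma 3.58.1 (R 4.3.3) with a trended variance on log2(FPKM + 1), so a log2 difference is on that scale and understates the change of low genes. The alternative test was an exact 2-sided rank-sum test per gene over all divisions of the 20 libraries. P-values were adjusted by Benjamini-Hochberg over all genes tested. Libraries were grouped by their titles, and runs by laboratory experiment number; whether a run was a separate batch is not given. The alternatives changed the pseudocount, the filter, the scaling, the libraries, the run covariate and the test, and those added after the data were seen removed a transcript length trend (GENCODE 29), left out libraries with few genes or fragments, or left BCL2A1 out of the sums. No 2 libraries held identical values. Everything else was computed with Python 3.11.15, pandas 2.3.3, numpy 2.4.6 and scipy 1.17.1, and the statistics were tested on simulated data.

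FPKM hides depth, so fragments were estimated from the confidence bounds of 10 mitochondrial protein genes, with a largest residual of 0.118 to 0.997%. All values with few fragments are imprecise, and 24 member values above 0 lie under about 1 fragment. The rule for naming genes took all 10 members, from each other list every gene past the threshold and the 2 with the highest mean, and, for members detected in at least 12 libraries, the 3 genes most correlated with each; genes such as CFLAR, the other cell type markers and the overlapping rows were named after their values were seen. The 6 genes used as a check of exact zeros were also chosen then. Some genes and 1 list of the pathway are not reported here. The members and the gene lists were chosen with earlier results of these data known. Promoter sequences came from RefSeq (GRCh38.p14), whose table matched 8 of the 10 members, all but BIK and MCL1.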

Additional observations from a re-analysis of the deposited data

Results flagged for a closer look

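A gap test between the most extreme library and the next (Dixon's, at the 95% level) was applied within each set of 10 libraries to log2(FPKM + 1) of each member and to the log2 ratio of survival to death, and it marked 8 of 21 groups of values. That level assumes normally distributed values, whereas several of these groups were mostly exact zeros. BIK in the numbered set, for example, was listed at 0 in 9 libraries, so its 1 detection was bound to be marked. The number of marked groups therefore cannot be compared with a rate by chance. In the unnumbered set, split 246 stood apart for 3 genes, with 6.80 for BAK1, 1.42 for BIK and 0.26 for BCL2L11. Split 232 stood apart for BCL2 at 3.97, split 233 for BCL2L1 at 2.78 and split 253 for BAD at 6.22. In the numbered set, split 5 stood apart for BAD at 4.15 and split 2 for BIK at 1.21. BCL2A1, BID, BAX and MCL1 had no marked library in either set.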

How the results depend on the processing

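No paired analysis was possible because the unnumbered splits carry no split number to match to the numbered ones. BCL2A1 was called higher in numbered splits under every alternative except the removal of the length trend, which was added after the data were seen (1.26, limma adjusted p = 0.0710; range over its alternatives 0.000542 to 0.0710). BCL2L1 lost its call with no filter on the mean (3.32, adjusted p = 0.0532), without splits 247 and 252 (3.24, adjusted p = 0.0775) and without run a or with that run as a covariate (3.14, adjusted p = 0.105 and 0.128), and single libraries left out gave 3.03 to 3.72 with an adjusted p of 0.0101 to 0.0587. BID lost its call without 247 and 252 (3.74) and without run a or with it as a covariate (3.5, adjusted p = 0.214 and 0.152); single libraries left out gave 3.85 to 4.70. The causes were not tested. MCL1, BCL2 and BAX kept their direction and stayed uncalled in all settings run.

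BAK1 and BAD had no stable direction and were never called. BAK1 turned to 0.0826 without 247, 0.00914 without 247 and 252 and 0.0822 without split 9, 247 and 253, and single libraries left out gave -0.52 to 0.58. BAD turned to 0.13 with a pseudocount of 0.1, 0.56 without split 9, 247 and 253 and a mean rank difference of 1.6 in the rank-sum test, and single libraries left out gave -0.53 to 0.50.

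The median log2 ratio of survival to death turned to -0.50 in numbered and -0.42 in unnumbered splits without BCL2A1, and in unnumbered splits to 0.41 when medians replaced sums. Detections at 10 FPKM came to 30 in numbered and 19 in unnumbered splits. At 0.1 FPKM and with a lower bound above 0, unnumbered splits had 38 and 44, against 53 to 54 in numbered splits. The rank-sum test called 953 genes, 706 higher in numbered and 247 in unnumbered splits. In limma 413 genes were higher in numbered and 145 in unnumbered splits, and 234 and 232 with the length trend removed. Of the other apoptosis genes, those higher in numbered splits fell to 3 with no filter, on the TPM scale, without 247 or with the length trend removed, and to 2 without run a or with it as a covariate. Those higher in unnumbered splits fell to 2 in the last 2 settings and with a pseudocount of 0.1. Single libraries left out gave 3 to 5 for either count. Depth limits all values in 247, where 1 fragment can exceed the detection level.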
